A study of Arabidopsis thaliana with 222 samples.

Results

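The genes described here are 10 carriers and cleavage enzymes of sugars in *Arabidopsis* roots, chosen by name out of 32311 genes in the count table: *SWEET2*, *SWEET11*, *SWEET12*, *SWEET16* and *SWEET17*, *STP1*, *STP4* and *STP13*, *SUC2* and *CWINV1*. All 10 passed the filter on low counts that left 21635 genes for testing. RNA was sequenced from seedling roots of 5 genotypes, each with NB (no bacteria, a mock inoculation with magnesium chloride) or with a single bacterial strain, in 37 groups of 6 libraries. The 16 strains were tested in wild-type Col-0, and each mutant was given a subset of them: *gnom184* received RMF27, L469, L339 and L196; *lbd16-1* received RMF8, RMF217, L76, L412, L384, L359, L343 and L180; *nph4-1* received RCL115, L359 and L344; and *arf7 arf19* received L344 alone. The purpose of the design was to ask how single members of the root microbiota act on root branching when the auxin route to lateral roots is intact or impaired. Seedlings had grown for a week on agar before transfer and grew for another week with the strain or with NB. RMF27 and RCL115 are *Bacillus*, L196 *Exiguobacterium*, RMF217 *Paenibacillus*, L264 *Leifsonia*, RMF331 *Luteibacter*, L76 *Acidovorax*, L384 *Pararhizobium*, L469 *Methylobacterium*, L344 *Bosea*, L359 *Flavobacterium*, RMF8 and L180 *Chryseobacterium*, and L339, L343 and L412 *Sphingomonas*. The mutants are in the Col-0 background. The double mutant *arf7 arf19* lacks a pair of auxin response factors, *nph4-1* carries a lesion in *ARF7* alone, *lbd16-1* an insertion in *LBD16*, a transcription factor gene downstream of these factors, and *gnom184* a mutation in *GNOM*, which encodes a guanine nucleotide exchange factor for vesicle traffic. Each genotype is represented by 1 line, and whole roots of several seedlings were pooled for a library.

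Sucrose made in leaves reaches the root through the phloem, where *SUC2*, a sucrose and proton symporter of companion cells, loads it and takes back what leaks out. Outside the sieve tubes sucrose can be split in the cell wall into glucose and fructose by cell wall invertase, of which *CWINV1* is a member, and the hexoses are then taken up by sugar transport proteins (STP), hexose and proton symporters of the plasma membrane. SWEET proteins let sugars pass down a gradient without a proton. *SWEET11* and *SWEET12* export sucrose from phloem parenchyma cells of leaves, and *SWEET2*, *SWEET16* and *SWEET17* sit in the vacuolar membrane, where *SWEET17* carries fructose. In roots this machinery decides how much sugar stays in cells and how much can leave towards microbes, and *SWEET2* and *STP13* have been studied in that setting.

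In the RefSeq annotation of build TAIR10.1, all 10 members are protein-coding genes, named here with their exons. *SWEET2* (AT3G14770) lies at chr3:4957334-4959704, *SWEET11* (AT3G48740) at chr3:18052466-18054832, *SWEET16* (AT3G16690) at chr3:5684317-5686544 and *CWINV1* (AT3G13790, symbol *ATBFRUCT1* in RefSeq) at chr3:4532762-4535914, each on the minus strand. *STP4* (AT3G19930) lies at chr3:6934568-6937197 and *STP1* (AT1G11260) at chr1:3777236-3780823, both on the plus strand. *SWEET12* (AT5G23660) lies at chr5:7971647-7973995, *STP13* (AT5G26340, symbol *MSS1* in RefSeq) at chr5:9243398-9247540, *SWEET17* (AT4G15920) at chr4:9030486-9033648 and *SUC2* (AT1G22710) at chr1:8030587-8033156, all on the minus strand. The 5 SWEET genes have 6 exons each, the STP genes and *SUC2* have 4, and *CWINV1* has 7. The closest pair are *SWEET11* and *SWEET12*, whose coding sequences are 80.4% identical over 876 aligned bases, so reads that both share may have been divided between them. *SWEET16* and *SWEET17* are 64.7% identical and *STP1* and *STP4* 62.8%. Outside the 10 genes the nearest relatives are *SUC1* for *SUC2* (75.1% identity), *CWINV5*, a neighbour on the same chromosome, for *CWINV1* (72.1%) and *STP12* for *STP1* (70.6%). *STP1* overlaps AT1G11270 on the other strand, and since no source used here states whether counting used strand, reads of these genes cannot be told apart and the values of *STP1* are uncertain to that extent.

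The 250 bases before the annotated start are shown for the pair that differed most between groups (*SWEET11* and *SWEET12*) and for the pair that rose with most strains (*STP1* and *STP4*). They are read 5′ to 3′ on the strand of the gene, in lower case with the motifs below in capitals, from the TAIR10.1 sequence of RefSeq. The windows are chr3:18054833-18055082, chr5:7973996-7974245, chr1:3776986-3777235 and chr3:6934318-6934567.
SWEET11: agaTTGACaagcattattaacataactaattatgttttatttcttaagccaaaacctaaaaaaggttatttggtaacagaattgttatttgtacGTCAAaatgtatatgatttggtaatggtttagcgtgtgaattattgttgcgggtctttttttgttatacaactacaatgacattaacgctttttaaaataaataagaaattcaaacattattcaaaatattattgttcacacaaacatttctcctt
SWEET12: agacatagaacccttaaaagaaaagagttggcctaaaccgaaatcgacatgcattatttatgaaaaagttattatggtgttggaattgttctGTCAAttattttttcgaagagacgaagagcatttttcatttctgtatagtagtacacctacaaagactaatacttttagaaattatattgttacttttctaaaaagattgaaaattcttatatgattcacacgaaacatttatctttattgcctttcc
STP1: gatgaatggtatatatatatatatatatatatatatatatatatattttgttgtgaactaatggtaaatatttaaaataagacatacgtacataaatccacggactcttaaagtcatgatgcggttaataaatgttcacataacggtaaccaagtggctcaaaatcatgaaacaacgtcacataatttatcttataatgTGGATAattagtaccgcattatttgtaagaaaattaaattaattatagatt
STP4: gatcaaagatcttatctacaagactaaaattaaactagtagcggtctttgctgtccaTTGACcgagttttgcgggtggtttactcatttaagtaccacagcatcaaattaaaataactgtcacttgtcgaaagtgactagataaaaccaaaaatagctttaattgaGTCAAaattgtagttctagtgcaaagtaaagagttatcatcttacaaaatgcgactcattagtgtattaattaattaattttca

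Motifs searched on both strands of these windows were the W-box core TTGAC that WRKY factors bind (read GTCAA on the other strand), the element GCCGCC of ethylene response factors, the auxin response element TGTCTC, the G-box CACGTG and the sugar-related element TATCCA (read on the other strand as TGGATA). *SWEET11* held 2 W-box cores, one on each strand, *STP4* also held 2, *SWEET12* held 1 and *STP1* held 1 TATCCA element; none of these matches overlaps another. Over the 10 members, 5 held a W-box core (*SWEET2* and *CWINV1* are the others), against 44.9% of 27443 promoters of the same length, 2 held TATCCA (*STP1* and *SWEET17*), against 13.6%, 1 held TGTCTC (*SWEET2*), against 10.9%, and 1 held CACGTG (*SUC2*), against 6.5%. The ethylene response element was in none of the 10 windows and in 1.9% of all. A match of letters is a description and not a site in use.

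The libraries held between 10255732 and 29735838 counts, with a median of 18434824. Libraries resembled the mean of their own group with a median correlation of 0.991 across genes. The lowest, 0.958, belonged to replicate 5 of *arf7 arf19* with L344. The Col-0 NB group, the reference of all 16 Col-0 comparisons, had the widest spread of the 37 groups, with a median variance over genes of 0.0439 on the log2 scale, against a median of 0.0228 over the groups. Every root, xylem and phloem marker examined (6, 4 and 6 genes) had counts in every library. So did 6 genes of green tissue, and their summed level ran from 182 to 5707 CPM (counts scaled to a common library total, with effective totals from the trimmed mean of M-values) with a median of 463 CPM. In 7 libraries it exceeded 3 times the median. The highest of these was replicate 5 of *arf7 arf19* with L344, where the sum was 5707 CPM and at most 716 CPM in the other libraries of that group. The others were replicate 4 of *gnom184* with RMF27 (3042 CPM), replicate 6 of *gnom184* with L469 (2985 CPM), replicate 4 of *nph4-1* with RCL115 (1979 CPM), replicate 1 of *lbd16-1* with RMF217 (1732 CPM), replicate 5 of Col-0 with L264 (1561 CPM) and replicate 2 of *gnom184* NB (1504 CPM). Results that rest on such a library are given with and without these 7.

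Per kilobase of transcript, *CWINV1* was the most abundant member, at a median over all libraries of 201 CPM per kb. *STP4* followed at 52.3, *SWEET17* at 47.1, *STP1* at 45.6, *SWEET2* at 29.8, *SWEET16* at 25.9, *SUC2* at 17.5 and *STP13* at 10.3 CPM per kb. *SWEET12* and *SWEET11* were far scarcer, with *SWEET11* the lowest at 0.732 CPM per kb. In raw terms a median library held 7782 counts of *CWINV1* but only 38.5 of *SWEET12* and 18.0 of *SWEET11*, and each of these scarce genes was at 0 in 2 libraries, so their values carry the widest errors. Between groups, the mean of the highest group was 121 times that of the lowest for *SWEET11* and 64.1 times for *SWEET12*. This ratio was 5.45 for *SUC2*, 4.03 for *STP13* and between 1.77 (*CWINV1*) and 2.84 (*SWEET2*) for the rest. Ordered by mean level, neighbouring groups overlapped in 35 of 36 pairs for *SWEET17* and *SUC2* and in all 36 for the other members, so neighbours in these orders mostly do not differ beyond their spread.

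To ask how the root's sugar carriers responded to single strains, each strain in Col-0 was set against Col-0 NB. The hexose importers *STP1* and *STP4*, the invertase gene *CWINV1* and the vacuolar carrier *SWEET16* rose with most strains, by less than 2-fold. The vacuolar carrier *SWEET2* fell with 9 strains, *SWEET17* with 5 and the hexose importer *STP13* with 8, while *SWEET11* and *SWEET12* rose steeply with a few. A gene is called here when its Benjamini-Hochberg adjusted p, over all tested genes in a comparison, was under 0.05 in the quasi-likelihood test of edgeR. Of 160 tests (10 members in 16 comparisons), 61 were called higher and 24 lower, which is 38.1% and 15.0%. Over all genes 12.6% of tests were called higher and 12.8% lower. The members were chosen with earlier results of these data known, so such shares, here and in the mutants, are a description. The median log2 fold change over the member tests was 0.16, against 0.00 over all genes. All 16 comparisons share the same 6 NB libraries and are not independent of each other. The adjusted p rests on the spread between libraries within groups, estimated for each gene over all 37 groups together. With each comparison fitted on its own groups only, 52 tests were called higher and 20 lower. The study describes the libraries as biological replicates of an experiment done more than once. No label gives the run of a library.

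Strains differed in how many members were called. With L344 and RMF27 it was 9 of 10 members each, where 31.1% and 44.3% of all genes were called in either direction. With L343 it was 8 (35.4% of all genes). With L264, L76 and RMF8 it was 7 each (33.5%, 27.2% and 33.8% of all genes), and with L180, L469 and RMF331 6 each (33.8%, 35.3% and 27.3%). With L339 and L384 5 members were called (24.9% and 27.6% of all genes), and with L196, L359 and L412 3 each (21.2%, 15.1% and 11.6%). RMF217 had 1 called member, *SWEET2*, with 4.06% of all genes called. Its 6 libraries were split, since *STP1* held 65.6, 67.7 and 69.2 CPM in replicates 1 to 3 but 115, 108 and 96.4 CPM in replicates 4 to 6. *STP4* held 65.3, 64.5 and 65.3 CPM, then 127, 105 and 103 CPM. Replicates 1 to 3 have high library numbers in their titles and replicates 4 to 6 low ones. The cause was not tested. RCL115 had 0 by edgeR and 0 by DESeq2, with 1 member at an unadjusted p under 0.05 (*SWEET12*, log2 fold change −1.19, adjusted p = 0.407) and 0.453% of all genes called.

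**Figure D1:**
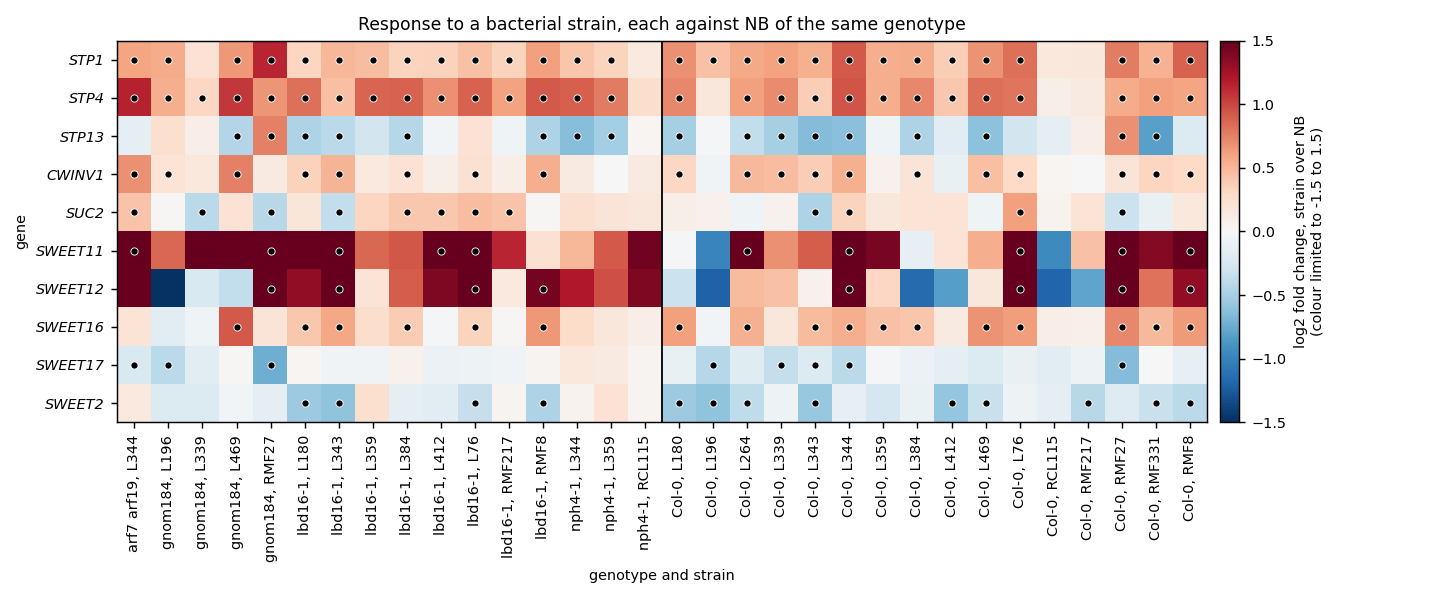
Log2 fold change of the 10 members (vertical axis) for each strain in a mutant or in Col-0, relative to that genotype's own NB (horizontal axis, mutants to the left of Col-0). Red is higher with the strain, blue lower, colours are limited to 1.5 in both directions, and a dot marks an adjusted p under 0.05. *STP1* and *STP4* were higher with a dot in nearly every column, whereas the dots of *SWEET11* and *SWEET12* are few and deep red.

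*STP1*, a high-affinity hexose importer, rose with 14 of 16 strains, all except RCL115 and RMF217, by log2 fold changes between 0.37 (L412) and 0.92 (L344). With L344 the libraries held 109.6, 139 and 214 CPM (lowest, median and highest of 6), against 53.5, 80.9 and 97.9 CPM in NB. Every library with L344 was above every NB library, and replicate 3 stood highest. The log2 fold change of 0.92 had a standard error (SE) of 0.10, and the adjusted p was 3.06e-13. RMF8 (0.89 ± 0.10 SE) and L76 (0.83 ± 0.10 SE) came next. In 10 of the 16 comparisons the strain libraries lay wholly above NB. The share of all genes whose groups lay apart is not given here, so such counts are descriptions. The smallest called change, with L412, was lost without replicate 1 or 5 of the NB groups.

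*STP4*, another hexose importer that responds to wounding, rose with 13 strains, all except L196, RCL115 and RMF217. Its libraries held 125, 151 and 184 CPM with L344 (lowest, median and highest), against 63.4, 82.2 and 99.8 CPM in NB, with no overlap. That is a log2 fold change of 0.94 ± 0.11 (SE, adjusted p = 3.58e-12). L469 followed at 0.83 ± 0.11 and L76 at 0.80 ± 0.11 (SE). The lowest called values were 0.37 with L343 and 0.41 with L412, where 4 and 3 of 6 libraries were above all NB libraries. *STP4* was at 104 ± 11.7 CPM with L343 and 107 ± 23.3 CPM with L412, against 80.5 ± 13.2 CPM in NB (SD, n = 6 each).

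**Figure D2:**
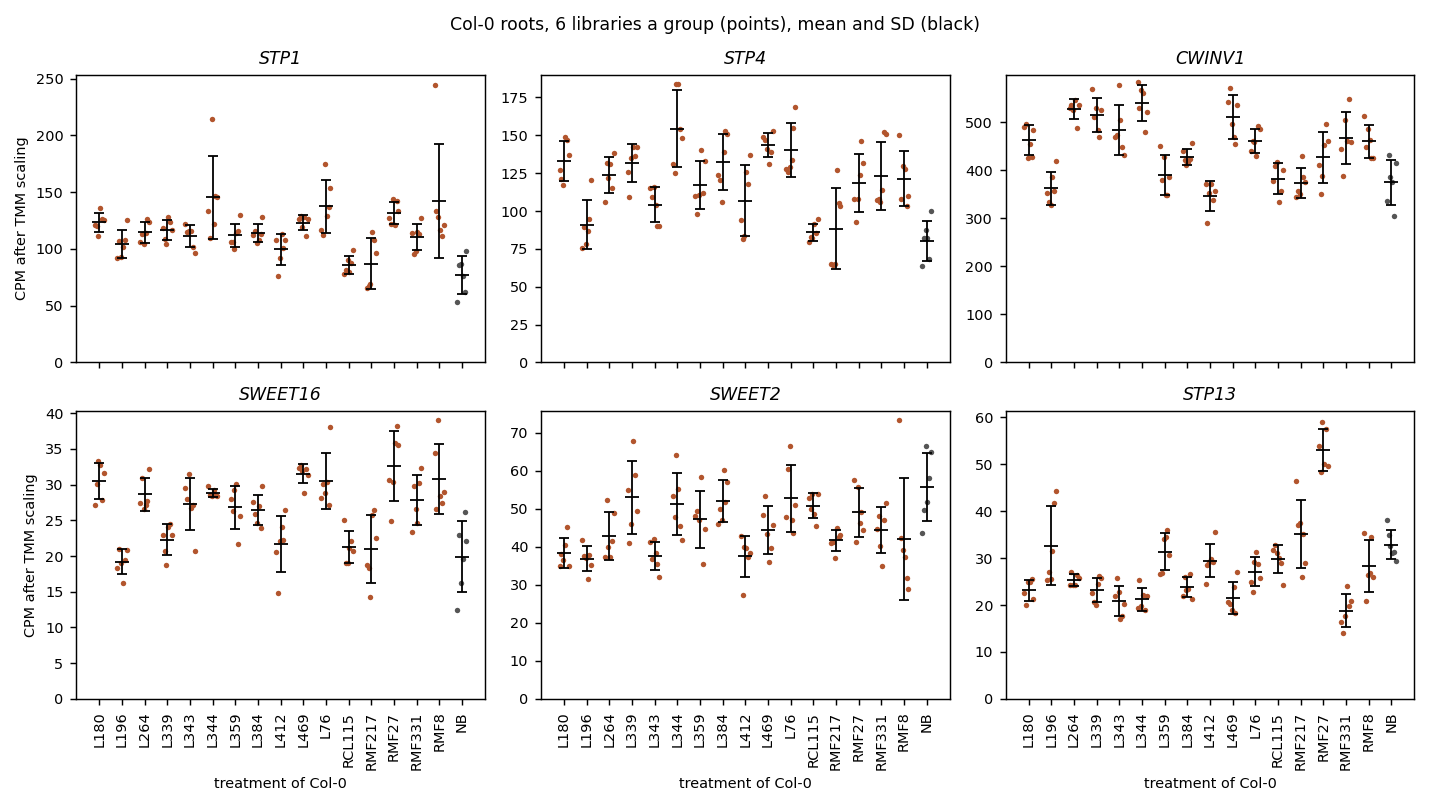
CPM of 6 members (vertical axes) in Col-0 roots with each strain and with NB (horizontal axis, NB last). Points are the 6 libraries of a group and black marks the mean and SD. *STP1* and *STP4* sit above NB in nearly all groups, *STP13* sits below NB in most and above it with RMF27, at 53.1 CPM against 32.9 CPM.

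*CWINV1*, the cell wall invertase, rose with 11 strains, by log2 fold changes between 0.19 and 0.53. With L344 its libraries held 479.7, 545 and 584 CPM (lowest, median and highest), against 305, 379.8 and 432 CPM in NB. No library overlapped. The log2 fold change was 0.53 ± 0.08 (SE, adjusted p = 3.75e-09), which is 1.44-fold. L264 (0.49 ± 0.08), L339 (0.46 ± 0.08) and L469 (0.45 ± 0.08) were close behind. The smallest called changes, 0.19 with L384 and with RMF27, were lost when replicate 1, 3, 4 or 5 of the NB groups was left out, each in turn. With RMF27 the value was 0.35 in the libraries of low title numbers and 0.00 in those of high numbers (adjusted p = 0.995), and 9 of 20 alternatives ended the call.

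*SWEET16*, a sugar carrier of the vacuolar membrane, also rose with 11 strains, and its called log2 fold changes lay between 0.42 (L384) and 0.72 (RMF27). With RMF27 the libraries held 24.9, 33.1 and 38.2 CPM (lowest, median and highest), against 12.5, 20.9 and 26.2 CPM in NB, and 5 of the 6 were above all NB libraries. The log2 fold change was 0.72 ± 0.12 (SE, adjusted p = 6.65e-08). With L469 *SWEET16* was at 31.6 ± 1.40 CPM, against 19.9 ± 4.92 CPM in NB (SD, n = 6 each), and the groups were apart. The call with L359 was lost without replicate 1 of the NB groups. *SWEET16* was not called with L196, L339, L412, RCL115 or RMF217.

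*STP13*, a hexose importer known from defence and cell death, was called in both directions. It fell with L180, L264, L339, L343, L344, L384, L469 and RMF331 and rose with RMF27. With RMF331 its libraries held 14.1, 18.7 and 24.1 CPM (lowest, median and highest), against 29.4, 31.9 and 38.1 CPM in NB. All 6 lay below all NB libraries, and the log2 fold change was −0.81 ± 0.13 (SE, adjusted p = 1.08e-07). With RMF27 the libraries held 48.4, 52.0 and 59.1 CPM and lay wholly above the same NB libraries, a log2 fold change of 0.69 ± 0.12 (SE, adjusted p = 6.80e-07). In all 9 called comparisons the strain and NB libraries were apart, a count that is again a description.

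*SWEET2*, a vacuolar carrier of root cells, fell with L180, L196, L264, L343, L412, L469, RMF217, RMF331 and RMF8, by log2 fold changes between −0.33 and −0.60. With L196 its libraries held 31.6, 37.4 and 41.9 CPM (lowest, median and highest), against 43.7, 54.9 and 66.6 CPM in NB. The groups did not overlap, and the log2 fold change was −0.60 ± 0.12 (SE, adjusted p = 8.66e-05). The calls with L469 and RMF331 (−0.33 each) were lost without replicate 3 or 6 of the NB groups. L412 (−0.58 ± 0.12) and L343 (−0.57 ± 0.12) were the other strains whose libraries all lay below NB. All 16 estimates were negative, the smallest being −0.08. The RMF8 value of −0.40 was −0.85 in the libraries of low title numbers. It was −0.06 in those of high numbers (adjusted p = 0.831), where replicate 1 held 73.4 CPM, above every NB library. With RMF217, the only member called there, *SWEET2* was at 41.7 ± 2.70 CPM, against 55.8 ± 8.99 CPM in NB (SD, n = 6 each, adjusted p = 0.0293), and this call was lost without replicate 3 or without replicate 5 of the NB groups.

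*SWEET17*, the fructose carrier of the vacuole, fell with L196, L339, L343, L344 and RMF27. With RMF27 its libraries held 41.8, 42.3 and 49.2 CPM (lowest, median and highest), against 59.2, 64.1 and 92.8 CPM in NB. All RMF27 libraries lay below all NB libraries, of which replicate 5 stood well above the other 5. The log2 fold change was −0.65 ± 0.08 (SE, adjusted p = 1.14e-11). L196 (−0.43 ± 0.08) and L344 (−0.41 ± 0.08) also gave groups that were apart. The call with L343 (−0.20 ± 0.08, adjusted p = 0.0496) was lost without replicate 4 and without replicate 5 of the NB groups.

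*SUC2*, the phloem sucrose carrier, was called with 4 strains, also in both directions, higher with L76 and L344 and lower with L343 and RMF27. With L76 its libraries held 36.1, 40.0 and 48.5 CPM (lowest, median and highest), against 21.2, 26.8 and 30.8 CPM in NB. The groups did not overlap, and the log2 fold change was 0.62 ± 0.12 (SE, adjusted p = 2.39e-05). With L343 *SUC2* was at 19.3 ± 3.02 CPM, against 26.4 ± 4.18 CPM in NB (SD, n = 6 each, log2 fold change −0.46 ± 0.13 SE, adjusted p = 0.00233). The changes with L344 (0.33 ± 0.12 SE) and RMF27 (−0.32 ± 0.13 SE) each lost their call when single NB replicates were left out: 1, 2 or 5 for L344 and 4 or 6 for RMF27. Of the 6 phloem markers 5 fell with RMF27 (median log2 fold change −0.36) and 2 with L343 (−0.22), while 1 rose with L76 (0.01) and 2 rose with L344 (−0.16). In a bulk root sample, fewer cells of a type and less RNA per cell cannot be told apart.

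*SWEET11*, a sucrose exporter, rose with RMF27, L344, L76, RMF8 and L264. With RMF27 its libraries held 8.97, 14.7 and 18.9 CPM (lowest, median and highest), against 0.225, 0.758 and 2.04 CPM in NB. The lowest RMF27 library was over 4 times the highest NB library, and the log2 fold change was 3.92 ± 0.61 (SE, 15.1-fold, adjusted p = 1.14e-08), the largest of any member in Col-0. With L344 the libraries held 1.08, 5.17 and 10.3 CPM and overlapped NB, with 4 of 6 above it, for a log2 fold change of 2.42 ± 0.62 (SE, adjusted p = 9.08e-04). L76 (1.95 ± 0.62), RMF8 (1.94 ± 0.62) and L264 (1.92 ± 0.62) gave similar estimates with overlapping libraries (adjusted p of 0.0112 or less). The libraries of these groups were uneven, and with RMF8 the highest held 10.6 CPM and the median 2.62 CPM. In the libraries of low and of high title numbers the log2 fold changes were 3.77 and 4.13 with RMF27. They were 0.82 (adjusted p = 0.434) and 2.76 with RMF8 and 1.74 (adjusted p = 0.0616) and 2.24 with L76. With L344 they were 2.86 and 1.44 (adjusted p = 0.241), and with L264 2.15 and 1.51 (adjusted p = 0.191).

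*SWEET12*, its closest relative, rose with L344, RMF27, L76 and RMF8. With L344 its libraries held 2.58, 11.7 and 14.7 CPM (lowest, median and highest), against 0.281, 1.43 and 7.23 CPM in NB. Of the 6, 5 were above all NB libraries, and the log2 fold change was 2.12 ± 0.48 (SE, adjusted p = 1.99e-04). With RMF27 the libraries held 3.78, 8.98 and 11.2 CPM and overlapped NB, for a log2 fold change of 1.73 ± 0.49 (SE, adjusted p = 0.00171). The NB libraries of *SWEET12* were themselves uneven, since replicate 6 held 7.23 CPM and the median was 1.43 CPM. Without replicate 6 the log2 fold changes were 2.93 with L344, 2.55 with RMF27, 2.53 with L76 and 2.14 with RMF8. The RMF8 call (1.33 ± 0.49 SE, adjusted p = 0.0250) was lost without replicate 1, 4 or 5 of the NB groups. With L76 the log2 fold change over all libraries was 1.71, and the libraries held 1.74 to 23.6 CPM, overlapping NB. In the libraries of low and of high title numbers it was 1.15 (adjusted p = 0.123) and 2.42. For RMF8 these values were −0.03 and 2.41. Fitted on their own groups only, the L76 and RMF8 comparisons lost their calls. No green tissue marker rose with RMF27, L344, L76, RMF8 or L264 in Col-0. Among the 6 green markers 1 fell with RMF27, and their median log2 fold change was −0.48 with RMF27 and −0.10 with L344. Other tissue markers did move with RMF27 in Col-0, where all 4 xylem markers fell (median −0.51) and 4 of 6 root markers rose and 1 fell (0.45). With L344, L76, RMF8 and L264, 3, 2, 4 and 4 root markers rose. The part of these shifts in the *SWEET11* and *SWEET12* values was not tested.

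**Figure D3:**
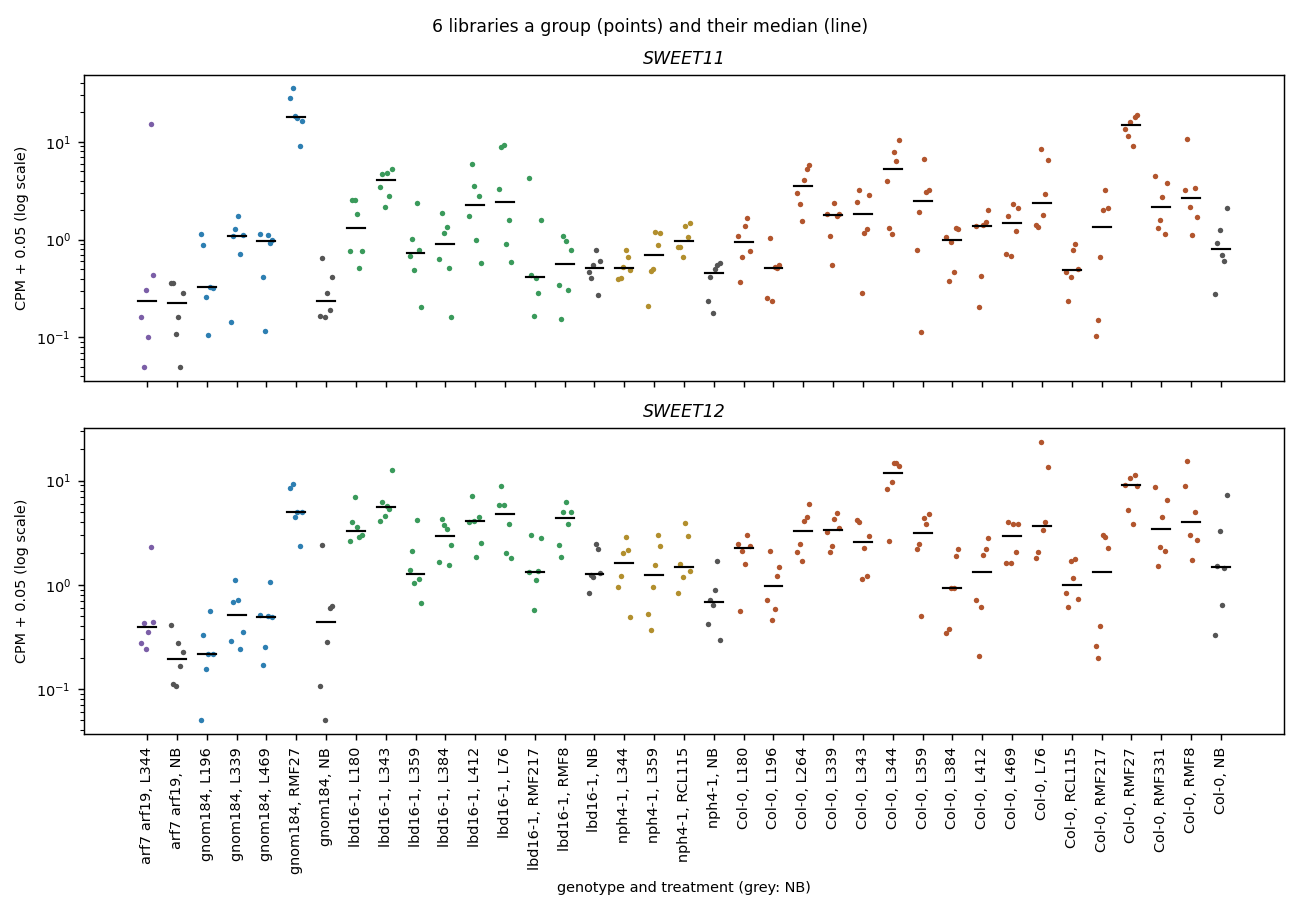
CPM of *SWEET11* (top) and *SWEET12* (bottom) in all groups, with 0.05 added, on a log axis (vertical), by genotype and treatment (horizontal, NB in grey). Points are the 6 libraries of a group and the line is their median. The RMF27 groups of *gnom184* and Col-0 stand at the top for *SWEET11*, with lowest libraries of 8.92 and 8.97 CPM, and 1 library of *arf7 arf19* with L344 at 15.2 CPM stands apart from its group.

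The mutants were then set against their own NB group with the strains each had received. The same members rose: *STP4* in 15 of 16 comparisons, *STP1* in 14, *CWINV1* in 8 and *SWEET16* in 6. Of 160 tests 58 were called higher (36.2%) and 17 lower (10.6%), against 12.9% higher and 10.8% lower over all genes, and the median log2 fold change was 0.23, against 0.01. Comparisons within a mutant share that mutant's 6 NB libraries. In *lbd16-1*, 9 of 10 members were called with L343 (24.5% of all genes), 8 with L76 (20.7%) and 7 with RMF8 (27.2%). There were 6 each with L180 and L384 (22.0% and 21.2% of all genes), 4 with L412 (12.9%), 3 with RMF217 (4.85%) and 2 with L359 (16.3%). In *gnom184*, 7 members were called with RMF27 (61.5% of all genes), 5 with L469 (28.4%), 4 with L196 (36.0%) and 2 with L339 (33.9%). In *arf7 arf19* 6 were called with L344 (34.4% of all genes). In *nph4-1* 3 were called with L344 (22.9%) and 3 with L359 (13.3%). With RCL115 in *nph4-1*, edgeR and DESeq2 both called 0 members, 2 members had an unadjusted p under 0.05, and 0.00924% of all genes were called.

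*STP4* held 157, 177 and 198 CPM in *arf7 arf19* with L344 (lowest, median and highest), against 66.9, 79.2 and 92.2 CPM in *arf7 arf19* NB. The groups were far apart, with a log2 fold change of 1.16 ± 0.11 (SE, 2.23-fold, adjusted p = 2.05e-17), the largest for *STP4* anywhere. *gnom184* with L469 followed at 1.06 ± 0.11 (SE). The weakest called change was 0.31 ± 0.11 in *gnom184* with L339 (SE, adjusted p = 0.0252), and it was lost without replicate 1, 3, 4 or 5 of the NB groups. *STP4* rose in *lbd16-1* with all 8 strains, in *gnom184* with all 4 and in both *nph4-1* and *arf7 arf19* with L344.

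*STP1* held 151, 159 and 193 CPM in *gnom184* with RMF27 (lowest, median and highest), against 65.6, 72.2 and 89.4 CPM in *gnom184* NB. The lowest RMF27 library lay well above the highest NB library, and the log2 fold change was 1.14 ± 0.11 (SE, 2.20-fold, adjusted p = 1.92e-20). In *lbd16-1* *STP1* rose with all 8 strains, between 0.32 (L180) and 0.61 (RMF8). Some *STP1* calls were lost without 1 replicate of the NB groups. This was replicate 2 with L412, 1, 2, 3 or 5 with RMF217 and 3 in *nph4-1* with L359. *CWINV1* rose most in *gnom184* with L469, where the libraries held 446, 516 and 572 CPM, against a mean of 305 ± 39.0 CPM in *gnom184* NB (SD, n = 6, log2 fold change 0.75 ± 0.08 SE, adjusted p = 2.11e-16). The groups were apart there. The smaller *CWINV1* calls were lost in *gnom184* with L196 without replicate 1, 4 or 5 of the NB groups or without a library whose title leaves its number unclear, in *lbd16-1* with L384 without replicate 3, 4 or 5 and in *lbd16-1* with L76 without replicate 4. *SWEET16* also rose most in *gnom184* with L469, with 21.4, 27.0 and 35.5 CPM, against 10.5, 14.3 and 23.1 CPM in *gnom184* NB (0.92 ± 0.12 SE, adjusted p = 6.30e-11). Replicate 2 of *gnom184* NB, at 23.1 CPM, was the only NB library that reached into the range with L469. In *lbd16-1* the *SWEET16* call with L384 was lost without replicate 5 and that with L76 without replicate 4, 5 or 6 of the NB groups.

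*STP13* was called lower in 7 mutant comparisons and higher in 1, with RMF27. It was not called in *lbd16-1* with L76, where the libraries were split. Replicates 1 to 3 held 63.8, 60.1 and 47.1 CPM and replicates 4 to 6 held 23.7, 26.4 and 24.8 CPM, against 30.6 to 41.5 CPM in *lbd16-1* NB. In this group replicates 1 to 3 have low library numbers in their titles and replicates 4 to 6 high ones. The cause of the split was not tested. The value of 63.8 CPM was the highest of *STP13* in any library. In *gnom184* with RMF27 its libraries held 38.3, 46.4 and 60.3 CPM (lowest, median and highest), against 24.4, 27.5 and 32.9 CPM in *gnom184* NB, apart from each other (0.75 ± 0.13 SE, adjusted p = 4.91e-08). It fell in *nph4-1* with L344 (−0.64 ± 0.13) and L359 (−0.51 ± 0.13), in *gnom184* with L469 (−0.44 ± 0.13) and in *lbd16-1* with L180, L343, L384 and RMF8 (−0.41 to −0.46). *SWEET2* fell in *lbd16-1* with L343, L180, RMF8 and L76, strains that no other mutant received. With L343 it held 31.1, 36.0 and 41.9 CPM, against 39.1, 58.7 and 66.4 CPM in *lbd16-1* NB (−0.60 ± 0.12 SE, adjusted p = 2.79e-05), with 4 of 6 libraries below all NB libraries. *SWEET17* fell in *gnom184* with RMF27, where it held 28.6, 36.5 and 40.7 CPM, against 53.0, 58.5 and 66.0 CPM in *gnom184* NB, apart from each other (−0.73 ± 0.08 SE, adjusted p = 2.01e-14). It also fell in *gnom184* with L196 (−0.41 ± 0.08) and in *arf7 arf19* with L344 (−0.23 ± 0.08). The last was lost without replicate 4 of the NB groups, and the *SWEET2* call in *lbd16-1* with L76 (−0.34 ± 0.12) without replicate 1, 2, 3 or 6.

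*SUC2* moved in both directions in the mutants. It rose in *arf7 arf19* with L344 (105 ± 12.0 CPM, against 78.1 ± 5.78 CPM in NB, SD, n = 6 each, log2 fold change 0.43 ± 0.12 SE) and in *lbd16-1* with L76, RMF217, L384 and L412. In *lbd16-1* with L76 the libraries held 41.8, 50.9 and 51.7 CPM (lowest, median and highest), against 26.9, 34.6 and 48.5 CPM in *lbd16-1* NB, and 4 of 6 were above all NB libraries (0.46 ± 0.12 SE, adjusted p = 0.00216). *SUC2* fell in *gnom184* with RMF27 (−0.42 ± 0.12) and L339 (−0.40 ± 0.12) and in *lbd16-1* with L343 (−0.37 ± 0.12). In the libraries of low and of high title numbers the *gnom184* values were −0.73 and −0.16 (adjusted p = 0.241) with RMF27. With L339 they were −0.28 (adjusted p = 0.138) and −0.59. The *lbd16-1* calls were lost without replicate 2 of the NB groups for L384, L412 and RMF217, without replicate 3 for RMF217 and without replicate 6 for L343. In these the phloem markers were lower too: 5 of 6 fell in *gnom184* with RMF27 (median log2 fold change −0.59), 5 of 6 in *gnom184* with L339 (−0.33) and 3 of 6 in *lbd16-1* with L343 (−0.27). Where *SUC2* rose they did not rise with it: in *arf7 arf19* with L344 1 rose and 2 fell (−0.16), and in *lbd16-1* their median was between −0.07 (RMF217) and 0.05 (L384), without a call. In *gnom184* with L196 and *lbd16-1* with RMF8 4 of them fell (−0.34 and −0.25) where *SUC2* was not called. Their part in the *SUC2* values was not tested.

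*SWEET11* reached its highest level in *gnom184* with RMF27, where the libraries held 8.92, 17.9 and 35.1 CPM (lowest, median and highest), against 0.110, 0.185 and 0.592 CPM in *gnom184* NB. The groups were far apart, and the log2 fold change was 6.33 ± 0.73 (SE, 80.2-fold, adjusted p = 2.60e-14). The NB side of this ratio rests on 25 counts over 6 libraries, against 2136 counts with RMF27. *SWEET12* in the same groups held 2.29, 4.93 and 9.29 CPM with RMF27, against 0, 0.393 and 2.37 CPM in NB (3.30 ± 0.60 SE, adjusted p = 5.75e-07). Only NB replicate 2, which held 2.37 CPM of *SWEET12* and 1504 CPM of green markers, overlapped the RMF27 libraries. Without replicate 2 of the NB groups the log2 fold change of *SWEET12* was 4.32. Without the 7 libraries of high green markers it was 4.33 for *SWEET12* and 6.68 for *SWEET11*. In this comparison all 4 xylem markers fell (median −0.75) and 5 of 6 root markers rose and 1 fell (0.70), and their part was not tested.

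In *lbd16-1* *SWEET11* rose with L343, L76 and L412. In the libraries of low and of high title numbers the log2 fold changes were 2.94 and 2.99 with L343. They were 3.69 and 1.22 with L76 and 2.76 and 1.58 with L412. The values of high numbers were not called with L76 (adjusted p = 0.435) or L412 (adjusted p = 0.396). With L343 *SWEET11* held 2.11, 4.02 and 5.26 CPM (lowest, median and highest), against 0.223, 0.463 and 0.729 CPM in *lbd16-1* NB, without overlap (2.97 ± 0.68 SE, adjusted p = 2.09e-04). *SWEET12* in the same groups held 4.02, 5.48 and 12.5 CPM, against 0.790, 1.22 and 2.39 CPM, also without overlap (2.08 ± 0.51 SE, adjusted p = 6.45e-04). *SWEET12* further rose with L76 (1.63 ± 0.52) and RMF8 (1.43 ± 0.52), the second of which was lost without replicate 1, 2 or 3 of the NB groups. *SWEET11* in *arf7 arf19* with L344 was called at 3.90 ± 0.85 (SE, adjusted p = 6.19e-05), but the libraries held 0, 0.185 and 15.2 CPM, against 0, 0.172 and 0.312 CPM in *arf7 arf19* NB. The value rests on replicate 5, the library with 5707 CPM of green markers, and without the 7 libraries of high green markers the log2 fold change was −0.13.

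To test whether a mutant's response to a strain differed from that of Col-0, the Col-0 response was subtracted from the mutant response in the same model. Of 160 such tests 7 were called for members (4.38%), against 5.40% over all genes, so members differed between genotypes about as often as other genes. The 7 calls fell in *nph4-1* with L344 (3 members, 4.56% of all genes), *gnom184* with L339 (3 members, 16.6%) and *gnom184* with RMF27 (1 member, 22.9%). The mutant and the Col-0 terms of a strain are from different libraries, but all Col-0 terms share Col-0 NB.

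With L344, *SWEET17* was at 67.2 ± 4.12 CPM in *nph4-1*, against 60.0 ± 2.17 CPM in *nph4-1* NB (adjusted p = 0.146, although the groups were apart), while in Col-0 it was at 51.2 ± 6.05 CPM with L344, against 68.3 ± 12.5 CPM in Col-0 NB (SD, n = 6 each). The response in *nph4-1* was higher than that in Col-0 by 0.58 ± 0.12 on the log2 scale (SE, adjusted p = 4.44e-04), and this was the 1 interaction that held in all 20 alternative settings other than a fold limit. *STP1* went the other way: its rise with L344 was smaller in *nph4-1* (log2 fold change 0.42) than in Col-0 (0.92), a difference of −0.50 ± 0.15 (SE, adjusted p = 0.0289). *CWINV1* with L344 was at 456 ± 21.5 CPM in *nph4-1*, against 417 ± 11.0 CPM in *nph4-1* NB (0.13, adjusted p = 0.230), and the difference from the Col-0 response of 0.53 was −0.40 ± 0.11 (SE, adjusted p = 0.0134). The *STP1* difference was lost without replicate 1, 4 or 5 of the NB groups and the *CWINV1* difference without replicate 5.

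With L339, *STP13* was at 29.9 ± 5.66 CPM in *gnom184*, against 28.0 ± 3.63 CPM in *gnom184* NB, whereas in Col-0 it was at 23.2 ± 2.60 CPM with L339, against 32.9 ± 3.17 CPM in Col-0 NB (SD, n = 6 each). The responses differed by 0.60 ± 0.18 on the log2 scale (SE, adjusted p = 0.0134). This difference was 0.11 in the libraries of low title numbers (adjusted p = 0.771) and 1.06 in those of high numbers (adjusted p = 2.56e-04). *SUC2* fell in *gnom184* with L339 (−0.40) and had an estimate of 0.07 in Col-0, a difference of −0.47 ± 0.17 (SE, adjusted p = 0.0494). *CWINV1* had an estimate of 0.16 in *gnom184* and rose by 0.46 in Col-0, a difference of −0.30 ± 0.11 (SE, adjusted p = 0.0424). With RMF27, *SWEET16* was at 16.8 ± 1.66 CPM in *gnom184*, against 14.8 ± 4.41 CPM in *gnom184* NB, and at 32.6 ± 4.87 CPM in Col-0 with RMF27, against 19.9 ± 4.92 CPM in Col-0 NB, a difference of −0.53 ± 0.17 (SE, adjusted p = 0.0146). Each of these calls was lost when 1 replicate number was left out of all NB groups at once. This was replicate 1 for *STP13*, 1, 2, 5 or 6 for *SUC2*, 3 or 5 for *CWINV1* and 2 for *SWEET16*. The estimates in those fits were 0.51 for *STP13*, −0.40 to −0.49 for *SUC2*, −0.30 and −0.27 for *CWINV1* and −0.40 for *SWEET16*. The calls of *CWINV1* and *SWEET16* were also lost without the 7 libraries of high green markers. In the L339 comparison within *gnom184*, all 6 green markers fell (median log2 fold change −0.95), and their part in these values was not tested.

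**Figure D4:**
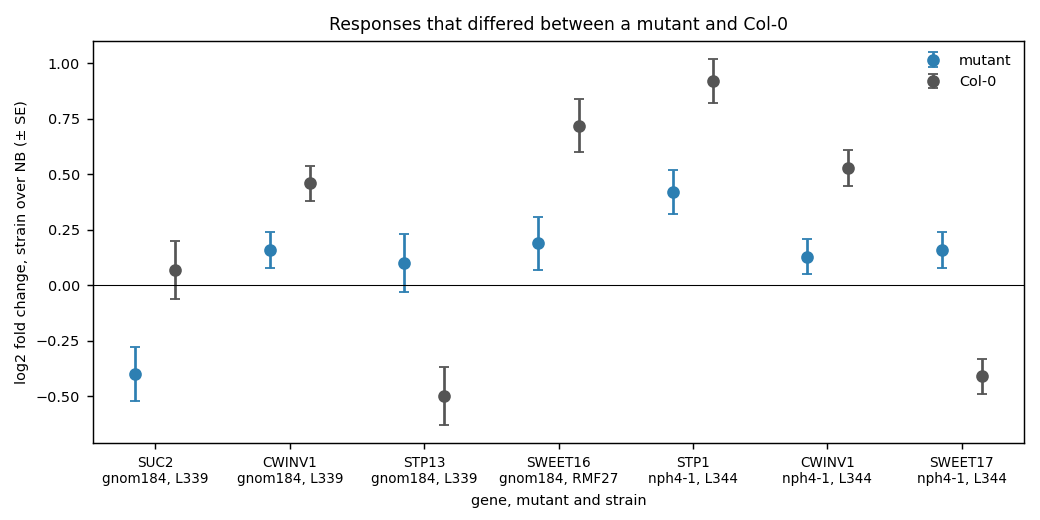
Responses that differed between a mutant and Col-0. The vertical axis is the log2 fold change against NB of the same genotype, with the SE as bars, and the horizontal axis gives the member, mutant and strain, with the mutant (blue) left of Col-0 (grey). *SWEET17* with L344 has the mutant at 0.16 and Col-0 at −0.41.

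The steep *SWEET11* and *SWEET12* responses did not pass this test. For RMF27 the response of *SWEET11* was 2.41 ± 1.03 higher in *gnom184* than in Col-0 on the log2 scale (SE, 95% interval 0.38 to 4.43, adjusted p = 0.0774), and that of *SWEET12* 1.56 ± 0.79 higher (0.00 to 3.12, adjusted p = 0.148). For L343 the response of *SWEET12* was 2.01 ± 0.73 higher in *lbd16-1* than in Col-0 (SE, adjusted p = 0.264). Over the 16 interaction tests, *SWEET11* had 0 calls by edgeR and 0 by DESeq2, with 4 at an unadjusted p under 0.05, and *SWEET12* had 0, 0 and 5. These intervals are wide, and a p that misses the threshold does not show that the genotypes respond alike.

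The genotypes were also compared without bacteria, each mutant NB group against Col-0 NB. *SUC2* was higher in all 4 mutants, *SWEET12* was lower in 3, and *STP13* and *SWEET11* were lower in *arf7 arf19*. Of 40 tests 9 were called higher and 8 lower. In *arf7 arf19*, 8 of 10 members were called (46.5% of all genes), in *gnom184* 4 (32.0%), in *nph4-1* 4 (13.1%) and in *lbd16-1* 1 (6.61%). All 4 comparisons share the Col-0 NB libraries.

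*SUC2* held 70.2, 78.7 and 84.1 CPM in *arf7 arf19* NB (lowest, median and highest), against 21.2, 26.8 and 30.8 CPM in Col-0 NB. The groups were far apart, with a log2 fold change of 1.56 ± 0.12 (SE, 2.95-fold, adjusted p = 1.48e-24). It was at 51.6 ± 10.2 CPM in *gnom184* NB (0.96 ± 0.12 SE), 47.1 ± 3.91 CPM in *nph4-1* NB (0.83 ± 0.12 SE) and 35.6 ± 7.28 CPM in *lbd16-1* NB (0.42 ± 0.12 SE), against 26.4 ± 4.18 CPM in Col-0 NB (SD, n = 6 each). All libraries of *arf7 arf19*, *gnom184* and *nph4-1* lay above all of Col-0. The *lbd16-1* call (adjusted p = 0.0218) was lost without replicate 1, 5 or 6 of the NB groups.

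Phloem markers rose beside *SUC2* in part of these mutants. In *arf7 arf19*, 4 of 6 rose and 1 fell (median log2 fold change 0.36), in *gnom184* 4 rose (0.28), in *nph4-1* 1 rose (0.06), and in *lbd16-1* the median was 0.07. Their summed level was at least 305 CPM in every library of *arf7 arf19* NB and ran from 259.6 to 337 CPM in *gnom184* NB, 225 to 275 CPM in *nph4-1* NB and 229 to 257 CPM in *lbd16-1* NB, against 207 to 253 CPM in Col-0 NB. Root markers moved as well: of 6, 5 fell and 1 rose both in *arf7 arf19* (median log2 fold change −0.70) and in *gnom184* (−0.64), while their medians were 0.07 in *nph4-1* and 0.12 in *lbd16-1*. The change of *SUC2* was larger than the median change of the phloem markers in each mutant, and the part of either list in it was not tested.

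**Figure D5:**
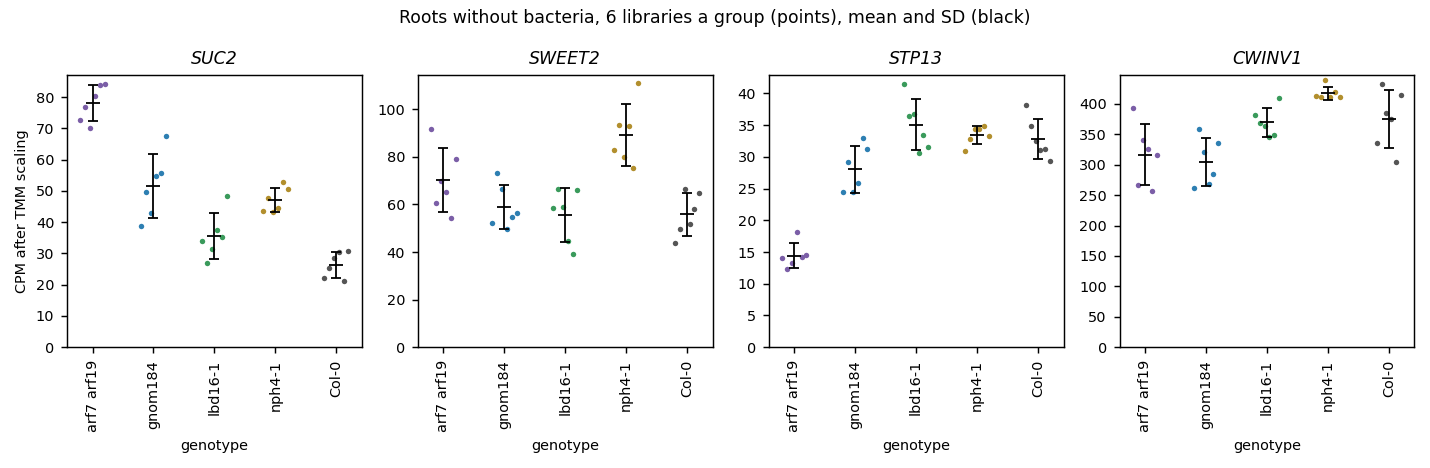
CPM of 4 members (vertical axes) in roots without bacteria, by genotype (horizontal axis, the mutants left of Col-0). Points are the 6 libraries of a group and black marks the mean and SD. *SUC2* is higher in every mutant, at 78.1 CPM in *arf7 arf19* against 26.4 CPM in Col-0, and *STP13* is low in *arf7 arf19*, at 14.4 CPM against 32.9 CPM.

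*STP13* held 12.4, 14.2 and 18.1 CPM in *arf7 arf19* NB (lowest, median and highest), against 29.4, 31.9 and 38.1 CPM in Col-0 NB, without overlap (−1.18 ± 0.13 SE, 2.27-fold lower, adjusted p = 9.14e-15). *SWEET12* was at 0.166 ± 0.115 CPM in *arf7 arf19* NB, 0.632 ± 0.885 CPM in *gnom184* NB and 0.727 ± 0.494 CPM in *nph4-1* NB, against 2.36 ± 2.59 CPM in Col-0 NB (SD, n = 6 each). The log2 fold changes were −3.79 ± 0.78, −2.06 ± 0.64 and −1.80 ± 0.61 in the same order (SE), and all the groups overlapped Col-0. Leaving out replicate 6 of the NB groups, which holds the highest Col-0 value, gave −2.95 in *arf7 arf19*, −1.24 in *gnom184* and −0.80 in *nph4-1*, and ended the call in *gnom184* and *nph4-1*. Leaving out replicate 3 also ended these calls, leaving out replicate 2 gave −3.19 in *gnom184* (−3.10 without the 7 libraries of high green markers), and leaving out replicate 1 gave −4.42 in *arf7 arf19*. *SWEET11* was at 0.171 ± 0.133 CPM in *arf7 arf19* NB, against 0.925 ± 0.637 CPM in Col-0 NB (−2.43 ± 0.97 SE, adjusted p = 0.0306), which rests on 18 counts in the mutant and was lost without replicate 3, 5 or 6 of the NB groups. Green markers were higher in *arf7 arf19* NB, where 4 of 6 rose (median log2 fold change 1.06), and in *gnom184* NB, where 2 rose (0.77), while *SWEET12* was lower in both and *SWEET11* in *arf7 arf19* (its estimate in *gnom184* was −1.89, adjusted p = 0.104).

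*SWEET2* held 75.2, 87.8 and 111 CPM in *nph4-1* NB (lowest, median and highest), against 43.7, 54.9 and 66.6 CPM in Col-0 NB, without overlap (0.67 ± 0.12 SE, adjusted p = 1.31e-05), and was higher by 0.33 ± 0.12 in *arf7 arf19*. In *nph4-1* it stayed at that level with strains, at 92.4 ± 6.87 CPM with L344, 104 ± 14.0 CPM with L359 and 91.6 ± 8.38 CPM with RCL115, against 89.1 ± 12.8 CPM in *nph4-1* NB (SD, n = 6 each), and these 4 groups held the most *SWEET2* of all 37. *SWEET16* was higher in *arf7 arf19* NB (0.44 ± 0.12) and *nph4-1* NB (0.33 ± 0.12) and lower in *gnom184* NB (−0.43 ± 0.12). The *nph4-1* call was lost without replicate 1, 2, 3 or 4 of the NB groups and the *gnom184* call without replicate 5. In the libraries of low and of high title numbers *SWEET16* changed by −0.72 and −0.07 (adjusted p = 0.854) in *gnom184*. The values were 0.06 (adjusted p = 0.851) and 0.64 in *nph4-1* and 0.29 (adjusted p = 0.0621) and 0.70 in *arf7 arf19*. *SWEET17* was higher in *arf7 arf19* NB (0.32 ± 0.08), and *CWINV1* was lower in *gnom184* NB (−0.29 ± 0.08) and *arf7 arf19* NB (−0.24 ± 0.08). In *arf7 arf19* the *CWINV1* call was lost without replicate 2 or 6 and the *SWEET2* call without replicate 1. *STP1* and *STP4* were called in none of the 4 comparisons by edgeR or by DESeq2, with 2 of the *STP1* and 0 of the *STP4* tests at an unadjusted p under 0.05.

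Across the 37 group means of log2 CPM, members formed pairs. *SWEET11* and *SWEET12* went together most (Pearson r = 0.81), followed by *SWEET16* and *CWINV1* (0.77), *STP1* and *STP4* (0.75) and *STP1* and *SWEET12* (0.70). *SWEET17* and *STP13* were the most opposed pair (−0.64). These groups share genotypes, strains and the scaling to depth, so r is a description over 37 points. Of all tested genes, the most alike to *SWEET11* were the dehydrin gene *RAB18* (r = 0.92) and *LTI65* (0.89), both known from responses to abscisic acid and drought, and to *SWEET12* another dehydrin gene, *XERO1* (0.93), and AT2G24130 (0.90). *SUC2* was most alike to the catalase gene *CAT3* (0.91) and *AACT1* (0.90), *STP1* to *AKINBETA1* (0.91), which encodes a subunit of the energy-sensing SnRK1 kinase, and *WIP2* (0.90), and *STP4* to AT1G55450 (0.93) and AT2G33390 (0.92). *CWINV1* was most alike to *VIK* (0.87) and *GRIK1* (0.85), whose product activates SnRK1. The nearest to *SWEET16* were *MPK2* (0.90) and *GGH1* (0.89), to *SWEET2* AT2G31945 (0.91) and *GLR2.5* (0.87), to *SWEET17* *THX* and AT1G48540 (0.88 each), and to *STP13* the wax and fatty acid genes *LACS1* (0.83) and *CER1* (0.82).

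Other genes of sugar transport and sucrose cleavage show where the members stand among their relatives. Their counts are to be read against the 12.6% of tests called higher and 12.8% called lower over all genes in Col-0. Of 12 further SWEET genes 5 were expressed enough to test, and of 80 Col-0 tests 9 were called higher and 11 lower, both near the share over all genes. *SWEET14*, a sucrose carrier, fell with 7 strains, down to −1.42 ± 0.35 with L76, and rose with 2, up to 1.02 ± 0.30 with RMF27 (SE). Of 11 further STP genes 6 were tested, with 16 of 96 Col-0 tests higher and 1 lower. *STP11*, known from pollen tubes, rose with 9 strains, most with RMF27 (3.84 ± 0.56 SE, adjusted p = 1.37e-09), but its median level was 0.163 CPM. Of 8 further SUC genes 3 were tested, with 20 of 48 Col-0 tests lower. *SUC4*, a sucrose carrier of the vacuole, fell with 12 strains, by at most −0.46 ± 0.07 with RMF27 (SE, adjusted p = 3.84e-09).

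Of 5 further cell wall invertase genes 3 were tested, with 21 of 48 Col-0 tests higher and 14 lower. All 14 that fell were of *CWINV5*, the neighbour of *CWINV1*, down to −3.15 ± 0.28 with RMF27 (SE, adjusted p = 1.25e-20), where its level in NB was 13.0 ± 3.36 CPM (SD, n = 6). The estimate of *CWINV1* with RMF27, 0.19, had the other sign but was among its weakest calls. Of 10 sucrose synthase and intracellular invertase genes all were tested, with 13 of 160 Col-0 tests higher and 26 lower. *SUS3*, a sucrose synthase, fell with 14 strains, down to −1.43 ± 0.15 with L469 (SE, adjusted p = 2.94e-16). Both invertase inhibitor genes were tested, with 2 of 32 Col-0 tests higher and 5 lower, and the 5 that fell were of *CVIF1*, which was lowest with L180 (−0.45 ± 0.14 SE). Of 8 vacuolar and other monosaccharide carriers all were tested, with 31 of 128 Col-0 tests higher and 18 lower, and *VGT2*, a putative vacuolar glucose carrier, fell with 14 strains, by at most −0.45 ± 0.06 with L469 (SE, adjusted p = 8.07e-10).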

How the data were processed

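RNA of whole seedling roots was sequenced by the authors, who used fastp 0.20.1 for trimming and, with the genome release of Ensembl Plants as target, Salmon 1.6.0 for quantification, summed transcripts to genes with tximport and tested them with DESeq2. The estimated counts per gene that the authors deposited were already whole numbers, were used as such and held 32311 genes in 222 libraries, of which 3010 genes had no count. The scaling option of tximport and the use of strand are not given in the sources used here. All columns matched a sample, so 0 columns of per-sample values were left unused. Groups were taken from the labels, and replicate numbers only name libraries.

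Genes were filtered with filterByExpr, scaled by TMM and fitted in 1 quasi-likelihood model of all 37 groups (edgeR 4.0.16, R 4.3.3, robust, prior count 0.125), with 52 contrasts and Benjamini-Hochberg adjustment within each at 0.05. The fit was tested on simulated data. Libraries held 10255732 to 29735838 counts. Intervals are 95% intervals of the fold change. Named genes were the 10 members, the 1 relative of each list called in most Col-0 contrasts and the 2 genes most like each member over 37 group means (prior count 2). Library values are given for the contrast of largest called change in Col-0 and in mutants. Members, lists and rules were chosen with earlier results of these data known. Alternatives were DESeq2 1.42.0, other size factors, filters, thresholds and prior counts, a family-wide adjustment, a covariate for the range (low or high) of the library number in the title, subsets of libraries and leaving out each NB replicate. An NB replicate was left out of all NB groups at once. Leaving out 7 libraries of high green markers was added after the data had been seen. Of 555 pairs of libraries within groups, 0 were identical, and the lowest chi-square per degree of freedom was 3.31. Promoter windows and gene positions came from RefSeq on TAIR10.1, matched by locus identifier for all 10 members, and no coordinate of the authors' files was used.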

Additional observations from a re-analysis of the deposited data

Results flagged for a closer look

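In 9 of 70 groups of 6 libraries examined, 1 library lay far from the other 5 relative to the range of the group. The rule would mark about 1 of 20 groups of independent, normally distributed values. CPM values need not be distributed so, and part of the groups were picked for their largest change. Whether 9 is an excess was not tested. For *SWEET12* and *SWEET16* it was the same library, replicate 2 of *gnom184* NB, at 2.37 CPM of *SWEET12* (the others at most 0.577 CPM) and 23.1 CPM of *SWEET16* (10.5 to 15.0 CPM). *SWEET17* held 92.8 CPM in replicate 5 of Col-0 NB, where the others held 59.2 to 69.1 CPM, and 49.2 CPM in replicate 2 of Col-0 with RMF27, where the others held 41.8 to 43.5 CPM. *STP1* held 214 CPM in replicate 3 of Col-0 with L344 (109.6 to 147 CPM) and 193 CPM in replicate 2 of *gnom184* with RMF27 (151 to 167 CPM). *STP4* held 101 CPM in replicate 6 of *lbd16-1* NB (81.8 to 86.6 CPM), *STP13* 18.1 CPM in replicate 4 of *arf7 arf19* NB (12.4 to 14.5 CPM) and *CWINV1* 439 CPM in replicate 3 of *nph4-1* NB (411 to 419 CPM).

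In 7 cases the response to a strain differed between a mutant and Col-0 by the interaction test of edgeR, given as the mutant response minus that of Col-0 on the log2 scale. With L344 in *nph4-1* the differences were 0.58 for *SWEET17*, −0.50 for *STP1* and −0.40 for *CWINV1*. With L339 in *gnom184* they were 0.60 for *STP13*, −0.47 for *SUC2* and −0.30 for *CWINV1*. With RMF27 in *gnom184* the difference was −0.53 for *SWEET16*.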

How the results depend on the processing

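Of 184 member contrasts called, 98 were called in all 20 alternatives other than a fold limit, and 86 were lost in at least 1. A log2 fold change of at least 1 as a further condition left 9 of 61 higher and 0 of 24 lower calls in Col-0, 12 of 58 higher and 0 of 17 lower calls in the mutants, 0 of 7 interactions and 6 of 17 calls between genotypes without bacteria, since most changes were below 2-fold. With low library numbers only, 7 mutant calls were lower. The count of interactions was 1 at an adjusted p under 0.01, 15 under 0.1, 11 with the number range as covariate and 4 to 8 when each NB replicate was left out, and fitting each contrast on its own groups left 8 calls between genotypes without bacteria. Leaving out each NB replicate gave 55 to 63 higher and 22 to 25 lower calls in Col-0, 52 to 58 and 15 to 17 in the mutants and 13 to 16 between genotypes. The calls that turned in sign were *SWEET12* in Col-0 with RMF8, at −0.03 with low library numbers only, and *SWEET11* in *arf7 arf19* with L344, at −0.95 with high numbers only and −0.13 without the libraries of high green markers. The cause was not tested. DESeq2 and other size factors lost 0 of the 184 calls. A prior count of 1 alters fold changes but not p-values, and a limit of 0.1 on adjusted p is looser than the main limit. Neither setting could therefore lose a call. They are counted among the 20 alternatives but do not test how firm the calls are. Single strain libraries were not left out in turn, and at 18.0 to 38.5 counts in a median library *SWEET11* and *SWEET12* are limited by depth.

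No paired analysis was possible because replicate numbers were given in accession order and the labels tie no library of a group to one of another. Every group holds 3 libraries of low and 3 of high title number, and this range, fitted as a covariate, gave 61 higher and 25 lower calls in Col-0, 61 and 17 in the mutants, 11 interactions and 17 calls between genotypes without bacteria, with 0 of the 184 calls lost.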
